A study of Homo sapiens with 8 samples.

Results

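The 8 genes described here form the first steps of insulin-like growth factor and insulin signalling inside the cell: the receptors IGF1R and INSR, the adaptors IRS1 and IRS2, the PI3K catalytic subunits PIK3CA and PIK3CB, and the kinases AKT1 and AKT2. They were taken by symbol from a table of read counts and are 8 of its 23346 gene symbols. All 8 passed the filter on low counts, as did 14977 genes in all. IGF1R and AKT2 are reported targets of the microRNA miR-194, and each was compared with its paralog.

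Cells of the human prostate cancer line 22RV1 were transfected in suspension with a double-stranded RNA that mimics miR-194 or with a negative control RNA, and their RNA was sequenced. Each RNA was given at 20 nM and the cells were collected after 36 h, with 4 libraries in each group. Both groups shared the line and the culture medium, RPMI1640 with fetal bovine serum, which itself carries insulin-like growth factors. A mimic raises the microRNA above its natural level, and mature miR-194 was not analysed here.

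Ligand binding switches on the kinase of IGF1R or INSR, which then phosphorylates the IRS adaptors. The adaptors recruit PI3K, whose lipid product draws AKT to the membrane, where PDPK1 and the mTORC2 complex activate it. Active AKT promotes growth through mTORC1 and keeps FOXO transcription factors out of the nucleus. The pathway is often active in prostate cancer, and IRS2 and INSR are themselves known FOXO targets.

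A microRNA recognises messages mainly through its seed, bases 2 to 8 from its 5′ end, which pairs with complementary sites in 3′ UTRs. The mature strand of miR-194-5p and the 8 strongest seed matches in the 3′ UTRs of the 8 genes are shown, with 1 weak match in INSR for contrast with its paralog IGF1R. Capitals mark the seed in the microRNA and the matching bases in the sites. Sequences run 5′ to 3′. The microRNA is from RefSeq (GRCh38.p14) and the sites from GENCODE 29 (GRCh38).
hsa-miR-194-5p: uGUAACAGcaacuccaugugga
IGF1R 7mer-m8, base 559: catcgttcatccaaggCTGTTACcatttta
IGF1R 8mer, base 1608: ctcacagcattggagcCTGTTACAgtgcaa
IGF1R 7mer-A1, base 6812: taataacatggccaattTGTTACAtaaaat
AKT2 8mer, base 875: gggccaccagccttggCTGTTACAatctta
PIK3CA 7mer-m8, base 1745: tattcatttatgaaatCTGTTACctatagt
PIK3CA 7mer-m8, base 2819: actgttaatttgaaatCTGTTACtcttatt
IRS1 7mer-A1, base 1288: tttttgagaacttccagTGTTACAttattt
IRS1 7mer-A1, base 2889: tgagaaatcagtactgaTGTTACAtttgtg
INSR 6mer, base 3747: tgtgaccctggggactaTGTTACcaactga

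Positions count bases after the stop codon in the longest annotated 3′ UTR. An 8mer is CTGTTACA, a 7mer-m8 is CTGTTAC, a 7mer-A1 is TGTTACA and a 6mer is TGTTAC, each read on the message strand and counted under the longest class that it meets. Within the paired groups, IGF1R, PIK3CA and AKT2 held an 8mer or a 7mer-m8, while their paralogs INSR, PIK3CB and AKT1 held neither. IRS1 held 7mer-A1 matches and its paralog IRS2 held 6mers at bases 1177 and 1267. PIK3CB and AKT1 held no match of any class. Among 13438 tested genes with an annotated 3′ UTR, 4.26% held an 8mer and 20.6% held an 8mer or a 7mer, against 4 of the 8 genes here. Since IGF1R and AKT2, which held the 8mers, are reported miR-194 targets, their matches came with the choice of genes. The comparison therefore sets nothing apart about the 8 genes. The 3′ UTR of IGF1R was 7088 bases long, that of PIK3CA 5729 and that of AKT2 3555, while the median over the tested genes was 1383, and a longer 3′ UTR has more room for a match. The 8mer of IGF1R lay in exonic 3′ UTR at chr15:98959050-98959057 on the plus strand. The 8mer of AKT2 lay in exonic 3′ UTR at chr19:40232990-40232997 on the minus strand.

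The 30 bases on each side were 36.7% A or U at the AKT2 8mer and 45.0% at the IGF1R 8mer. At the PIK3CA sites these shares were 73.3% and 80.0%. The IGF1R 8mer also had, within the 15 bases upstream, a match to bases 13 to 16 of miR-194-5p. Of the annotated transcripts with a 3′ UTR, 4 of 4 of IGF1R but 2 of 6 of AKT2 held an 8mer or 7mer, and which of them the cells used was not analysed here. In coding sequence, IGF1R held 2 matches of 7 bases or more, INSR 1 and PIK3CA 1. These matches are letters in a sequence, and binding was not measured.

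**Figure D1:**
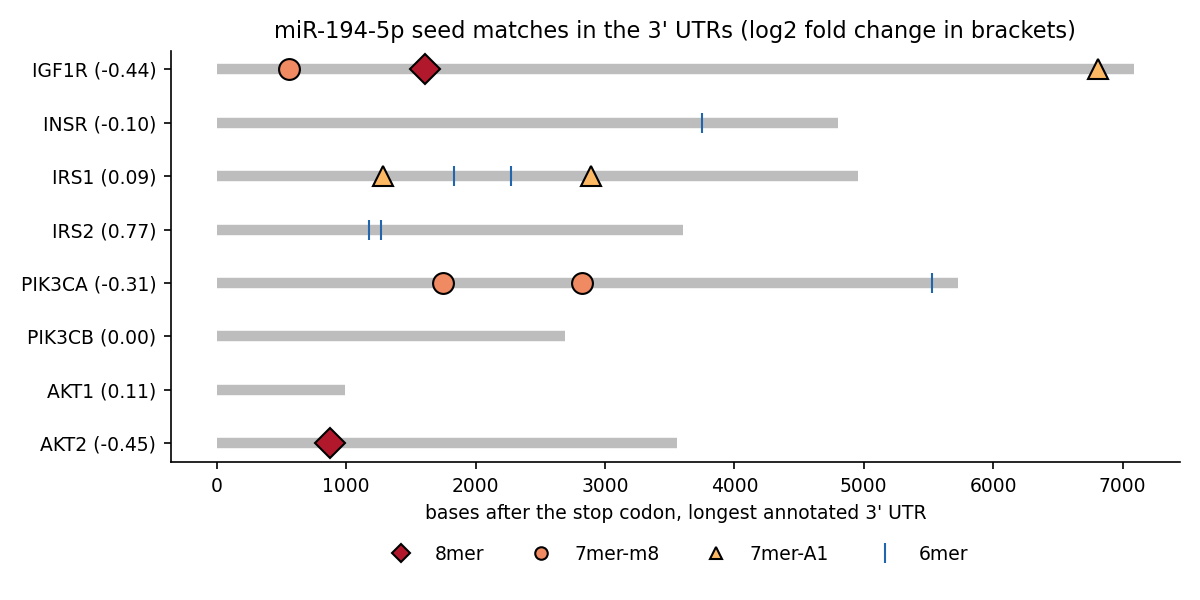
Each grey bar is the longest annotated 3′ UTR of 1 gene, drawn to scale in bases after the stop codon, with miR-194-5p seed matches as symbols and the gene's log2 fold change in brackets. The 8mers sit in IGF1R and AKT2, and the bars of PIK3CB and AKT1 carry no symbol.

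Library totals ran from 32485036 to 47248241 counts. The genes that mark luminal prostate epithelium were all detected (10 of 10), and their summed level was 4661 to 4993 CPM (library-scaled counts) in the mimic libraries against 4338 to 4544 in the controls. All 5 leukocyte and all 4 endothelial markers were below 1 CPM in every library. The 5 fibroblast markers summed to 16.9 to 19.0 CPM with the mimic and 15.3 to 16.4 in controls, mostly COL1A1. The luminal and fibroblast sums moved with the groups, and their part in the results was not tested. In bulk RNA, fewer cells of a kind and less RNA per cell cannot be told apart. Whether replicates were separate cultures is not stated in the labels, so each p-value speaks for the spread among these 8 libraries alone, and no untransfected library was analysed here.

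Of the 8 genes, IGF1R, PIK3CA and AKT2 were lower with the mimic, IRS2 and AKT1 were higher, and INSR, IRS1 and PIK3CB did not pass the threshold. The test was the quasi-likelihood test of edgeR, adjusted by the Benjamini-Hochberg method over all tested genes, with a threshold of 0.05. The response was broad: 38.1% of all tested genes passed, 18.3% higher and 19.9% lower. Beside these shares, the 5 calls describe the genes one by one and set nothing apart about the 8 as a group. The same genes, 5 of 8, had CPM values that did not overlap between the groups, against 36.9% of all tested genes. Among genes with an 8mer or 7mer site, 40.8% were lower and 11.3% were higher, while among genes with a 3′ UTR but no such site 15.2% were lower and 21.8% were higher. Of the 4 genes here with such a site, 3 were lower and IRS1 was not called.

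**Figure D2:**
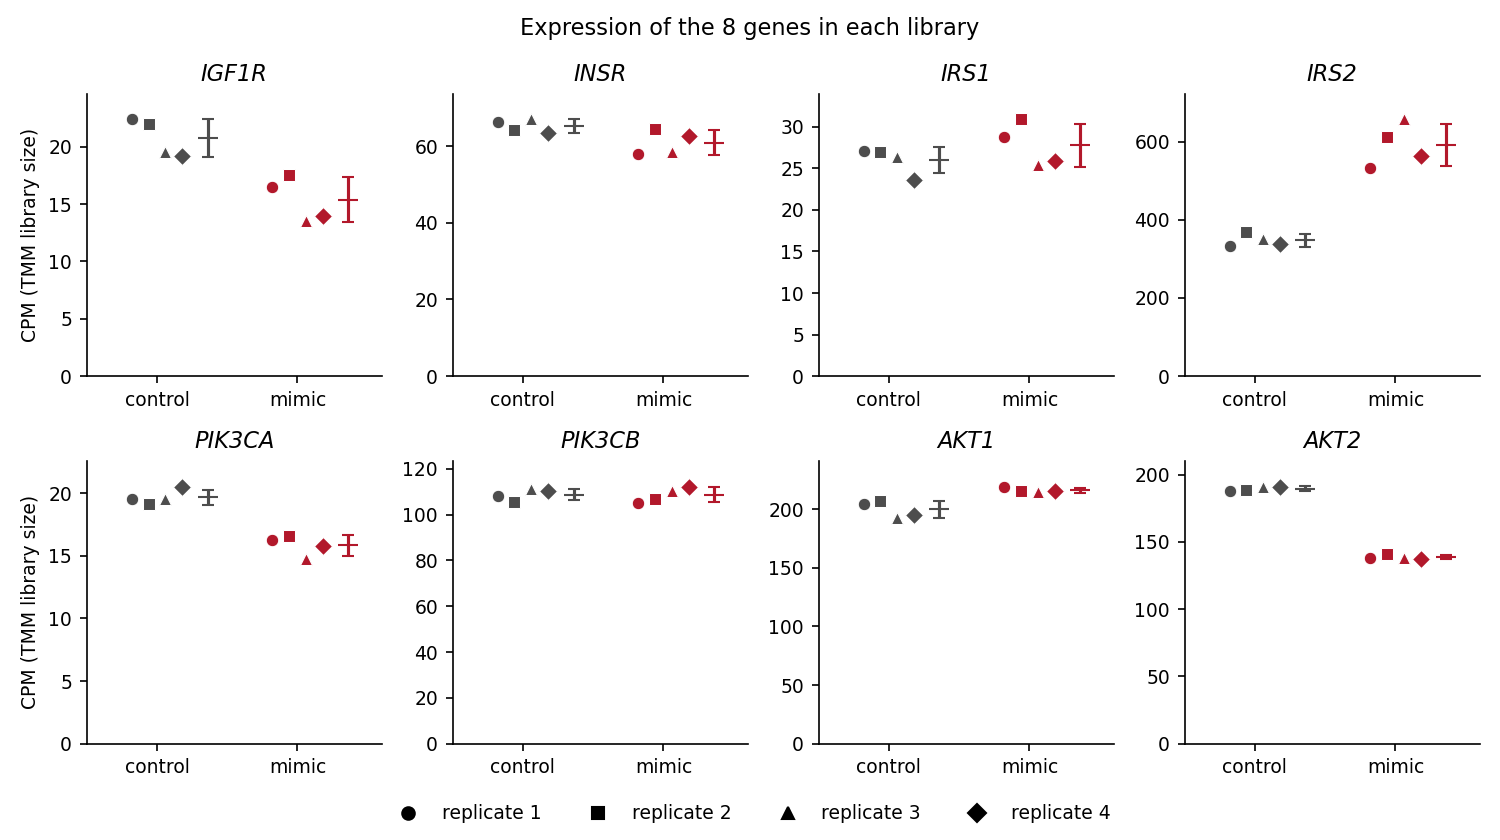
CPM (TMM-scaled library size) of each gene in the 4 control (grey) and 4 mimic (red) libraries, with symbol shapes for replicate numbers and bars for the mean and SD. The groups are apart for IGF1R, IRS2, PIK3CA, AKT1 and AKT2 and overlap for INSR, IRS1 and PIK3CB.

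IGF1R is the receptor tyrosine kinase for insulin-like growth factors. Its level was 22.4, 22.0, 19.5 and 19.2 CPM in control replicates 1 to 4. In mimic replicates 1 to 4 it was 16.5, 17.5, 13.5 and 14.0 CPM. Every mimic library was below every control library, and in both groups replicates 3 and 4 were lower than replicates 1 and 2. The mean fell from 20.8 ± 1.64 to 15.4 ± 1.93 CPM (SD, n = 4 each), to 74.1% of control. The log2 fold change was -0.44 (SE 0.09, 95% interval -0.63 to -0.24, edgeR adjusted p = 0.00256). Replicates 1 and 2 alone gave -0.39 and replicates 3 and 4 alone gave -0.49. In a fit with the replicate set as a term, replicates 3 and 4 were lower than replicates 1 and 2 by a log2 difference of -0.25 (SE 0.05, edgeR adjusted p = 0.00214).

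INSR, the insulin receptor, is the closest paralog of IGF1R and can form hybrid receptors with it. It stood at 66.3, 64.1, 67.0 and 63.3 CPM in controls. With the mimic it stood at 58.0, 64.6, 58.4 and 62.7 CPM. Mimic replicates 1, 3 and 4 were below all controls, replicate 4 only just, while replicate 2 lay within the control range, so the groups overlapped. The log2 fold change of -0.10 (SE 0.04, 95% interval -0.20 to -0.00054) missed the threshold (edgeR adjusted p = 0.106), and it passed when mimic replicate 2 was left out (edgeR adjusted p = 0.0448).

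IRS2 carries signals from both receptors and is the main IRS adaptor of liver and of pancreatic beta cells. Its control levels were 333, 369, 352 and 337 CPM, and its mimic levels were 533, 611, 657 and 563 CPM. All mimic libraries were far above the controls. The mean rose 1.70-fold, from 347 ± 16.2 to 591 ± 54.6 CPM (SD, n = 4 each), with a log2 fold change of 0.77 (SE 0.06, 95% interval 0.63 to 0.90, edgeR adjusted p = 3.39e-06). It was 0.70 in replicates 1 and 2 alone and 0.83 in replicates 3 and 4 alone. No other of the 8 genes changed as much in either direction.

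IRS1, the other widely expressed adaptor, measured 27.0, 27.0, 26.3 and 23.6 CPM in controls. It measured 28.8, 30.9, 25.4 and 25.9 CPM with the mimic. The groups overlapped, and replicates 3 and 4 were the lower ones in each. The log2 fold change was 0.09 (SE 0.07, 95% interval -0.06 to 0.25, edgeR adjusted p = 0.337). Its 3′ UTR holds a pair of 7mer-A1 matches.

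PIK3CA encodes the p110-alpha catalytic subunit of PI3K, the subunit most tied to receptor tyrosine kinases. Its level was 19.5, 19.1, 19.5 and 20.5 CPM in controls. With the mimic it was 16.3, 16.6, 14.7 and 15.7 CPM. Each mimic library was below each control library. The mean fell from 19.7 ± 0.598 to 15.8 ± 0.817 CPM (SD, n = 4 each), to 80.5% of control, with a log2 fold change of -0.31 (SE 0.06, 95% interval -0.44 to -0.19, edgeR adjusted p = 0.000988). The 2 sets of replicates gave -0.24 (1 and 2) and -0.39 (3 and 4). Of 9044 exonic 50-base words of PIK3CA, 2.37% also occur in AP000547.1, and an antisense gene, KCNMB3, overlaps its exons. In IRS2, 1.55% of 8089 such words occur in other genes, and antisense genes overlap exons of IRS2 (AL162497.1) and AKT1 (AL583722.2). The treatment of shared and antisense reads is unknown here, so these 3 genes carry that uncertainty.

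PIK3CB encodes p110-beta, a PI3K subunit that also takes signals from G protein-coupled receptors. Its control levels were 108, 106, 111 and 110.1 CPM and its mimic levels 105.3, 107, 110.4 and 112.2 CPM. The groups covered the same range. The log2 fold change was 0.00 (SE 0.03, 95% interval -0.07 to 0.08, edgeR adjusted p = 0.982), an interval that excludes the fold change measured for PIK3CA.

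AKT2 is the AKT isoform most closely linked to insulin-driven glucose uptake. It stood at 188, 188.3, 191.1 and 191 CPM in controls. With the mimic it stood at 138, 141, 138 and 138 CPM, from counts of 4541 or more. The groups were far apart and each was narrow. The mean fell from 190 ± 1.69 to 139 ± 1.48 CPM (SD, n = 4 each), to 73.1% of control. The log2 fold change was -0.45 (SE 0.03, 95% interval -0.51 to -0.39, edgeR adjusted p = 3.2e-07), close in size to that of IGF1R and with a smaller error. It was -0.43 in replicates 1 and 2 alone and -0.47 in replicates 3 and 4 alone. AKT2 kept its direction and its call in all 18 alternative settings.

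AKT1, the isoform most linked to cell survival and growth, measured 205, 207, 192 and 195 CPM in controls. It measured 219, 215, 214 and 215 CPM with the mimic. The groups did not overlap, and the 4 mimic libraries were closer together than the controls, where replicates 3 and 4 were the lower ones. The mean rose to 108% of control, with a log2 fold change of 0.11 (SE 0.03, 95% interval 0.04 to 0.19, edgeR adjusted p = 0.0192). The call was lost without control replicate 3 (edgeR adjusted p = 0.0574), without control replicate 4 (0.0587) and within replicates 1 and 2 alone (0.18). The log2 fold change without control replicate 3 was 0.095 and without control replicate 4 it was 0.10.

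**Figure D3:**
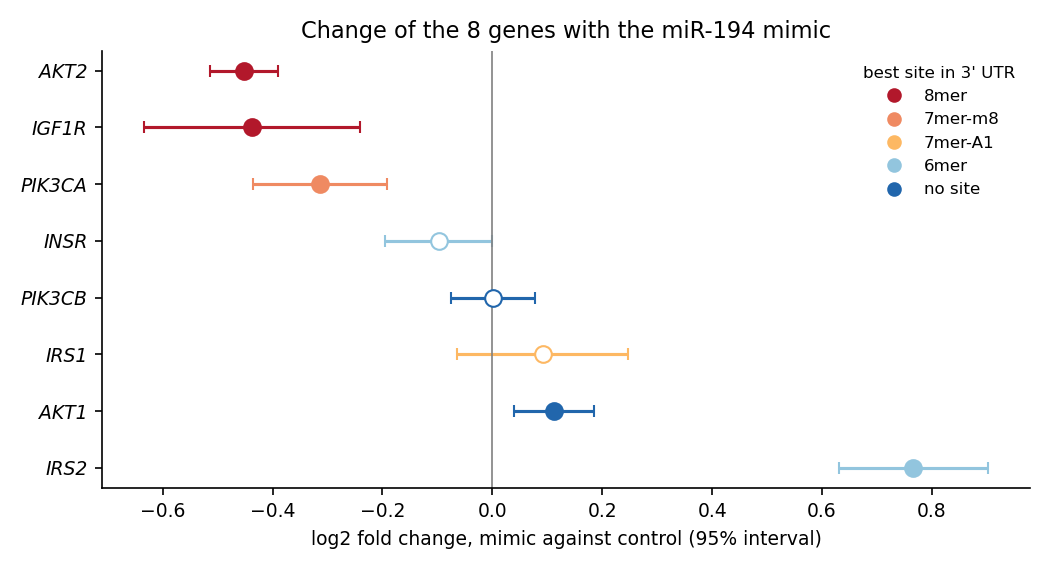
Log2 fold change of each gene, mimic against control, with its 95% interval from edgeR; filled points passed the adjusted threshold of 0.05, and colour gives the strongest seed match in the 3′ UTR. The genes with an 8mer or 7mer-m8 lie left of 0, IRS1 with a 7mer-A1 spans 0, and IRS2 lies farthest right at 0.77.

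The ratio of the counts of 2 paralogs within a library does not depend on library scaling, and it was used to test whether paralogs differed in response. The log2 ratio of AKT2 to AKT1 was -0.12, -0.14, -0.01 and -0.03 in control replicates 1 to 4. In mimic replicates 1 to 4 it was -0.67, -0.61, -0.64 and -0.65. The isoforms thus had nearly equal counts in controls and unequal counts with the mimic, and the AKT2 share of their summed counts fell from 48.7% ± 1.12 to 39.1% ± 0.374 (SD, n = 4 each). The difference in log2 ratio was -0.57.

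The log2 ratio of IGF1R to INSR was -1.57, -1.55, -1.78 and -1.72 in controls and -1.81, -1.88, -2.11 and -2.16 with the mimic, a difference of -0.34. Replicates 3 and 4 were lower in both groups, and the highest mimic value lay only just below the lowest control value. The log2 ratio of PIK3CA to PIK3CB moved from between -2.51 and -2.42 in controls to between -2.91 and -2.69, a difference of -0.31. The log2 ratio of IRS1 to IRS2 moved from between -3.84 and -3.62 to between -4.69 and -4.21, a difference of -0.67 in which IRS2 was higher and IRS1 was not called. In all 4 pairs the groups did not overlap. A two-sided exact permutation test over libraries gave p = 0.0286 for each, the smallest that 4 against 4 allows, also after adjustment over the 4 pairs. Of all tested genes taken singly, 36.9% did not overlap either. The share over other gene pairs was not computed, so these ratios set nothing apart about paralogs. With replicate numbers as pairs, the exact sign-flip test gave p = 0.125, the smallest that 4 pairs allow.

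**Figure D4:**
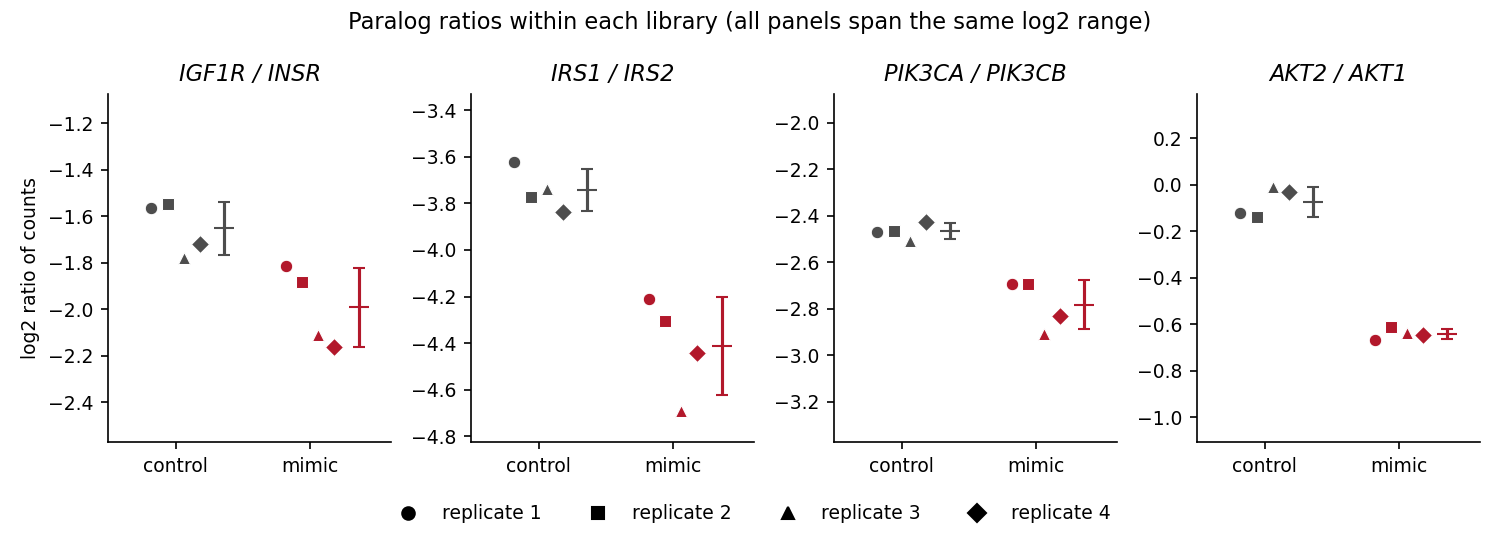
Log2 ratio of the counts of 2 paralogs in each control (grey) and mimic (red) library, with the mean and SD; all 4 panels span the same log2 range. In each panel the 4 mimic points lie below the 4 control points, and the tightest mimic group is AKT2 over AKT1, from -0.67 to -0.61.

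Levels of different genes were compared as CPM per kilobase of exon. In control libraries IRS2 was highest at 42.7 CPM per kilobase, followed by AKT1 at 17.9, PIK3CB at 13.8, AKT2 at 12.6 and INSR at 6.24. IRS1 at 2.61, PIK3CA at 2.07 and IGF1R at 1.49 CPM per kilobase were the lowest. The ranges over the 4 control libraries did not overlap between neighbours in this order. The order of the upper genes depended on the length used: divided by the longest transcript instead of all exons, AKT1 stood at 51.0 CPM per kilobase, above IRS2 at 42.7, and AKT2 at 35.8 stood above PIK3CB at 18.4. IGF1R remained the lowest with either length. Other paralogs were close to absent: in control libraries INSRR averaged 0.404 CPM, IRS4 0.638 and PIK3CD 0.655, and PIK3CG had 0.00637 CPM. INSRR, IRS4 and PIK3CD were tested and not called, PIK3CD with a log2 fold change of -0.62 (edgeR adjusted p = 0.0712). PIK3CG did not pass the filter on low counts and was not tested.

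The genes whose centred log2 CPM was most like that of IGF1R over the 8 libraries, by root mean square difference among 10302 genes, were ERI1 (0.0301), GAS2L3 (0.0305) and FADS2 (0.0320), with log2 fold changes of -0.39, -0.41 and -0.46. The likeness covers both groups, so log2 fold changes near that of the gene compared follow from the choice. ERI1 encodes an exonuclease of histone messages and its 3′ UTR held an 8mer. GAS2L3 encodes a cytoskeletal linker and had no 3′ UTR in the site search. FADS2, a fatty acid desaturase, held a 7mer-A1. For AKT2 they were DDB2 (0.0144), MAP7 (0.0251) and GLRX3 (0.0261), with log2 fold changes of -0.46, -0.45 and -0.48. DDB2, a DNA damage sensor, held no match, MAP7, a microtubule-associated protein, held a 6mer, and GLRX3, a glutaredoxin, held a 7mer-A1.

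Around the 8 genes, 88 other tested genes of the pathway were followed in 8 lists by role. Of these, 28 (31.8%) were higher with the mimic, 14 (15.9%) were lower and 46 did not pass, with a median log2 fold change of 0.05 against 0.00 over all tested genes. The shares over all tested genes were 18.3% and 19.9%. Among the 29 with an 8mer or 7mer site, 8 (27.6%) were higher and 11 (37.9%) lower, with a median of -0.09. Over all tested genes with such a site the shares were 11.3% and 40.8%, with a median of -0.12. Among the 59 without one, 20 (33.9%) were higher and 3 (5.08%) lower, with a median of 0.07. Over all tested genes with a 3′ UTR and no such site the shares were 21.8% and 15.2%, with a median of 0.03.

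Of 11 ligand and binding protein genes, 4 passed the filter on low counts. Against 38.1% of all tested genes called by edgeR, 0 of these 4 were called by edgeR, DESeq2 or limma-voom. At an unadjusted p below 0.05 edgeR had 1, IGFBP3, with a log2 fold change of -0.11 (edgeR adjusted p = 0.102); with replicate numbers as a block it passed (edgeR adjusted p = 0.0343). IGFBP1, a binding protein below the filter that is named after its values were seen, had counts of 6, 9, 13 and 11 in controls and of 4, 0, 5 and 2 with the mimic. Without the filter it was called lower (log2 fold change -1.76, edgeR adjusted p = 0.0164). IGF1, the main ligand of IGF1R, averaged 1.08 CPM in controls and 0.85 CPM with the mimic (log2 fold change -0.37, edgeR adjusted p = 0.155). IGFBP5 and IGFBP2 had log2 fold changes of -0.47 and -0.08 and did not pass. Outside the signalling receptors, IGF2R, which clears IGF2 from the surface, was higher, and its 3′ UTR held a 7mer-A1: 151 to 170 CPM over the controls against 180 to 209 CPM with the mimic. The groups did not overlap, with a log2 fold change of 0.26 (SE 0.05, edgeR adjusted p = 0.00266).

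Among the 17 other adaptors, 7 (41.2%) were higher and 1 (5.88%) lower, against 18.3% and 19.9% of all tested genes. The median log2 fold change of these adaptors was 0.10. This list also holds the phosphatases PTPN1 and PTPN11, both among the higher genes, which the list of phosphatases and brakes below leaves out. CRK, an SH2 and SH3 adaptor, rose from 64.1 to 82.1 CPM over the controls to 107 to 126 CPM, a log2 fold change of 0.66 (SE 0.09, edgeR adjusted p = 0.000268), and its 3′ UTR held a 7mer-m8. PTPN1, the phosphatase that takes phosphate off the insulin receptor, rose from 51.3 to 55 CPM over the controls to 73.9 to 76.8 CPM, a log2 fold change of 0.49 (edgeR adjusted p = 1.43e-06), and held a 7mer-A1. GRB2 and SOS2, which couple the receptors to RAS, rose by log2 fold changes of 0.27 and 0.21 (edgeR adjusted p = 8.49e-05 and 0.00277). With replicate numbers as a block the count of lower adaptors was 2.

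Among the 5 other tested class I PI3K subunits, 2 (40%) were higher and 0 lower, against 18.3% and 19.9% of all tested genes. The higher ones were the regulatory subunits PIK3R3 and PIK3R2, each with a log2 fold change of 0.17 (edgeR adjusted p = 0.00776 and 0.0263). The other 3 did not pass. PIK3R2 lost its call without mimic replicate 2, control replicate 3 or control replicate 4 (edgeR adjusted p = 0.0618, 0.0738 and 0.0738). It also lost it within replicates 1 and 2 alone (edgeR adjusted p = 0.117). PIK3R3 lost its call within replicates 3 and 4 alone (log2 fold change 0.14, edgeR adjusted p = 0.1004). PIK3R1, the main regulatory subunit, held a 7mer-m8 and had a log2 fold change of -0.09 (edgeR adjusted p = 0.184).

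Of the 7 other genes of AKT and its activating kinases, 2 (28.6%) were higher and 1 (14.3%) lower. The shares over all tested genes were 18.3% and 19.9%. MAPKAP1, a subunit of mTORC2, was at 53.5, 54.7, 51.4 and 51.3 CPM in controls. It was at 83.5, 85.2, 84.3 and 82.5 CPM with the mimic. The groups were far apart, with a log2 fold change of 0.67 (SE 0.04, edgeR adjusted p = 1e-07). RICTOR, the subunit that defines mTORC2, moved the other way, from a mean of 67.0 to 54.8 CPM with a log2 fold change of -0.29 (SE 0.06, edgeR adjusted p = 0.00446), and its 3′ UTR held 3 matches of 7 bases or more. PDPK1, the kinase of the activation loop of AKT, rose by a log2 fold change of 0.21 (edgeR adjusted p = 0.000858) and held a 7mer-A1. With replicate numbers as a block, 4 of this list were higher.

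Of 13 phosphatases and other brakes on PI3K and AKT, 2 (15.4%) were higher and 4 (30.8%) lower. The shares over all tested genes were 18.3% and 19.9%. INPP5K, an inositol phosphatase with an 8mer in its 3′ UTR, fell from a mean of 27.1 to 19.0 CPM, with a log2 fold change of -0.51 (SE 0.06, edgeR adjusted p = 3.34e-05). PHLPP1, which removes phosphate from AKT, and INPP4A, which acts on the PI3K lipid products, fell by 0.25 and 0.23 on the log2 scale (edgeR adjusted p = 0.00379 and 0.0219). The 3′ UTR of PHLPP1 held a 7mer-A1 and that of INPP4A an 8mer. INPP4A lost its call without mimic replicate 3, control replicate 1 or control replicate 2 (edgeR adjusted p = 0.056, 0.0599 and 0.0601). TRIB3, an AKT-binding pseudokinase, rose by a log2 fold change of 0.30 (edgeR adjusted p = 0.000351). The count of higher genes in this list was 4 with replicate numbers as a block. It was 1 without mimic replicate 1, 2 or 4 and without control replicate 3 or 4.

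Of 25 AKT substrates and mTORC1 genes, 7 (28%) were higher and 6 (24%) lower, against 18.3% and 19.9% of all tested genes. RHEB, the small GTPase that switches on mTORC1, was at 113, 117, 113 and 120 CPM in controls and at 54.2, 53.8, 51.9 and 50.6 CPM with the mimic. Among the genes of the 8 lists that passed the filter on low counts none fell further, with a log2 fold change of -1.14 (SE 0.04, edgeR adjusted p = 3.01e-09), and its 3′ UTR held a pair of matches, the better a 7mer-m8. TBC1D1, an AKT substrate in glucose transporter traffic, fell from a mean of 46.3 to 27.2 CPM (log2 fold change -0.77, edgeR adjusted p = 1e-07) and held a 7mer-m8. RPTOR, which recruits mTORC1 substrates, rose from a mean of 38.9 to 59.6 CPM (log2 fold change 0.62, edgeR adjusted p = 3.23e-06), and CDKN1B, a cyclin-dependent kinase inhibitor, rose from 191 to 245 CPM (log2 fold change 0.36, edgeR adjusted p = 5.01e-05) and held a 7mer-A1. CDKN1B is also on the list of FOXO targets below and counts among the higher genes of both lists. Without control replicate 4 the count of higher substrates and mTORC1 genes was 4.

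Of 16 tested FOXO targets outside the 8 genes, 8 (50%) were higher and 2 (12.5%) lower, against 18.3% and 19.9% of all tested genes. Their median log2 fold change was 0.23, and whether the list differs from other genes was not tested. PDK4, a kinase that limits pyruvate use, stood at 12.2 to 13.9 CPM in controls and at 41.6 to 52 CPM with the mimic, a log2 fold change of 1.87 (edgeR adjusted p = 1.42e-08). SESN3, a stress-response inhibitor of mTORC1, and ERBB3, a receptor that binds PI3K, rose by log2 fold changes of 0.81 and 0.41 (edgeR adjusted p = 2.67e-05 and 4.27e-05). SOD2, the mitochondrial superoxide dismutase, moved the other way, from 135 to 102 CPM (log2 fold change -0.40, edgeR adjusted p = 1.65e-06), and held a 7mer-A1. AKT activity and FOXO location were not measured in these data.

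**Figure D5:**
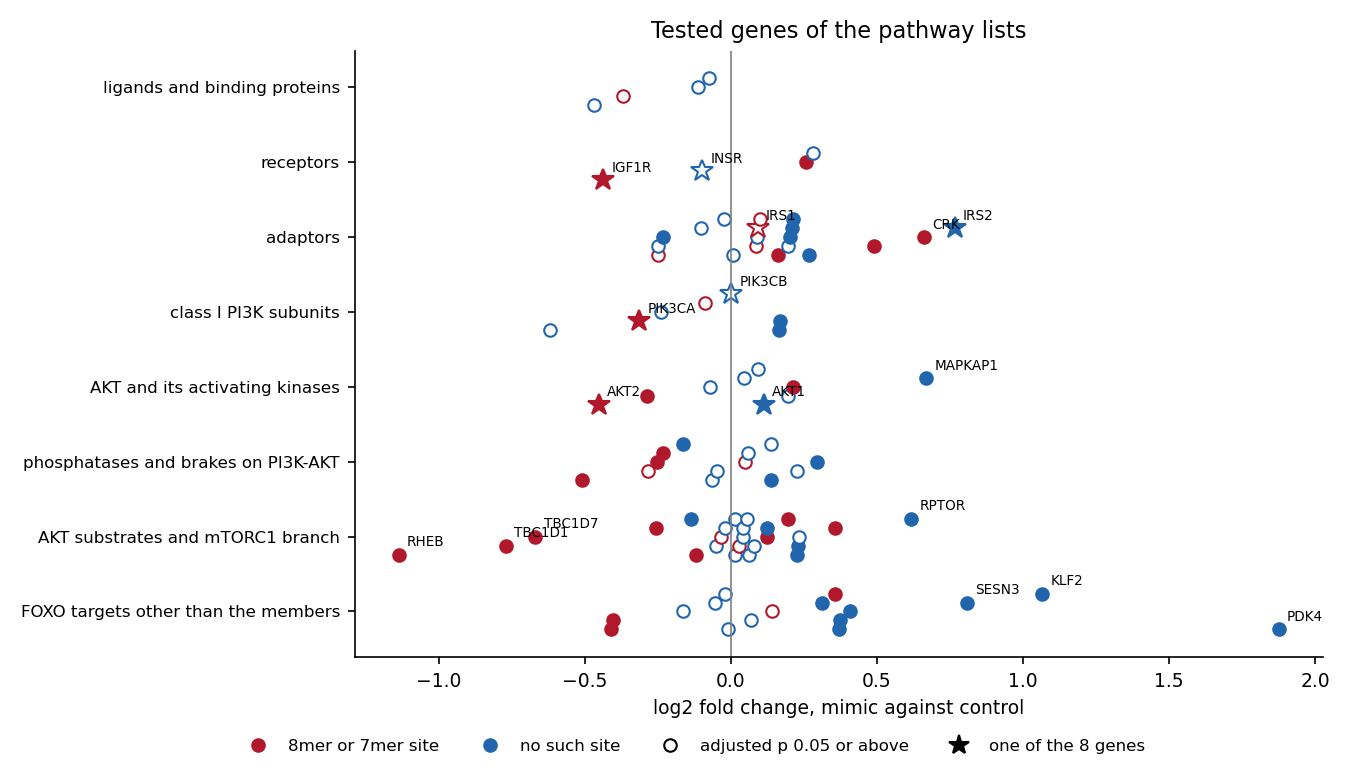
Log2 fold change, mimic against control, of each tested gene in the 8 pathway lists; red marks an 8mer or 7mer site, filled symbols passed the edgeR threshold, stars are the 8 genes, and names are given to these and to called genes beyond 0.6 on the log2 scale. RHEB lies farthest left at -1.14 and PDK4 farthest right at 1.87, and the stars of IGF1R, PIK3CA and AKT2 lie left of those of INSR, PIK3CB and AKT1.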

How the data were processed

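RNA was sequenced from 4 miR-194 mimic and 4 negative control libraries, grouped and numbered by their titles. The deposited values are raw read counts per gene symbol, as the values show; 3370 of 23346 symbols had no count. The submitters' processing notes list the build hg19, STAR, cutadapt 1.8.1, FastQC, edgeR 3.3 and R 3.2.3, with no role for each. No source used here gives the counting program, the annotation or the strand setting.

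The main test was edgeR 4.0.16, run in R 4.3.3 (filterByExpr, TMM, robust quasi-likelihood fit, Benjamini-Hochberg adjustment over 14977 genes, threshold 0.05), with group as the only term. Intervals use the t distribution of that fit. CPM use TMM library sizes; library totals differed by a ratio of 1.45. Alternatives were DESeq2 1.42.0, limma-voom (limma 3.58.1), other scalings and filters, a replicate block, each library left out, replicates 1 and 2 or 3 and 4 alone and, chosen after seeing the data, the replicate set as a term. Chi-square values per degree of freedom between replicates of a group (3.77 to 17.6) exceeded counting noise, and no libraries were merged.

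Sites were found with Python 3.11.15 in GENCODE 29 (GRCh38), using for every gene its longest 3′ UTR if it had 50 bases or more. The counts are on another build, so genes were joined by symbol: 20194 matched, 1460 by a synonym and 1692 not. Coordinates and exon lengths are from that annotation.

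The 8 genes and the lists were chosen with earlier results of these data known. Genes named were the 8, their paralogs (1 is not reported here), up to 4 others per list by smallest p, and the 3 genes most like IGF1R and AKT2 each (mean log2 CPM of at least 3).

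Replicate numbers are shared between groups. Same-numbered libraries deviated together (correlations of 0.27, 0.34, 0.18 and 0.43, each above the rule of 0.1), so the block was taken as a pairing. Libraries of replicates 1 and 2, and of 3 and 4, met the rule with numbers exchanged too, so the correlations show these 2 sets, and the labels name no shared batch or day.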

Additional observations from a re-analysis of the deposited data

Results flagged for a closer look

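In 4 of the 98 groups of 4 libraries examined, 1 library stood apart from the other 3 by Dixon's test at the 95% level, which chance gives in about 1 in 20 groups. AKT2 was at 140.757 CPM in mimic replicate 2 and at 137.5 to 138.0 in the other mimic libraries, all far below the controls. PIK3R2 was at 87.0086 CPM in mimic replicate 2 against 78.5 to 79.6 in the others, and its call was lost without that library (edgeR adjusted p = 0.0618). GLRX3 was at 84.392 CPM in mimic replicate 1 against 81.0 to 81.3. SOD2 was at 139.515 CPM in control replicate 1 against 133.6 to 134.3.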

How the results depend on the processing

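IGF1R, IRS2, PIK3CA and AKT2 kept their direction and call in every alternative run. With a library left out, log2 fold changes ran from -0.50 to -0.38 for IGF1R, -0.12 to -0.071 for INSR, 0.04 to 0.14 for IRS1, 0.72 to 0.82 for IRS2, -0.33 to -0.28 for PIK3CA, -0.013 to 0.020 for PIK3CB, 0.10 to 0.13 for AKT1 and -0.46 to -0.44 for AKT2. AKT1 was 0.077 within replicates 1 and 2. PIK3CB was not called in any setting and changed sign with library totals only (-0.015) and within replicates 1 and 2 (-0.0087).

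With a library left out, paralog log2 ratio differences ran from -0.40 to -0.28 (IGF1R over INSR), -0.74 to -0.58 (IRS1 over IRS2), -0.34 to -0.27 (PIK3CA over PIK3CB) and -0.59 to -0.54 (AKT2 over AKT1), where 3 against 4 libraries cannot give an exact permutation p below 0.0571. With the replicate block these differences were -0.34, -0.67, -0.31 and -0.57, and 4 pairs cannot give a p below 0.125. The replicate block called 7616 genes, 3778 higher and 3838 lower, against 5712, and changed no call among the 8 genes. In the pathway lists without the 8 genes it called 36 higher and 18 lower, against 28 and 14; MLST8 was one of the further calls (edgeR adjusted p = 0.027).

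IRS4, not called, had a log2 fold change of -0.25 in the main fit (edgeR adjusted p = 0.517). It changed sign to 0.22 within replicates 1 and 2 and was -0.61 within replicates 3 and 4. PIK3CD passed without control replicate 3 (-0.75, edgeR adjusted p = 0.0367) and with the replicate set as a term (-0.62, edgeR adjusted p = 0.0492). IGFBP3 passed within replicates 3 and 4 and without control replicate 2.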
